A study of Mus musculus with 20 samples.

Results

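The regions described here are 2075 promoter windows, each 3500 bp long, that were unmethylated in every densely covered control blastocyst. They were chosen by the measured values of 6 control embryos, control replicates 1, 2, 3, 4, 5 and 10: an autosomal window was taken when all 6 gave a methylation level and every level was under 5%. Of 54034 windows in the table, 51443 lay on autosomes, 22758 of those had a value in all 6 of these embryos, and 2075 of them (9.12%) met the rule. Levels in the 6 choosing embryos are therefore a description. Mutant embryos, replicates 11 to 20, were compared with the 4 control embryos the rule did not use (held-out controls, replicates 6 to 9), or with a choosing control read on windows that were chosen without it.

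The study measured DNA methylation by bisulfite sequencing of single mouse blastocysts, 10 labelled control and 10 labelled Padi6-mutant. The series text attributes the mutant embryos to oocytes carrying Padi6 P620A; the control mothers' genotype, each embryo's mother, litter and sex, and any batch were not given in the sources used here. Each embryo counts as 1 replicate, and a p-value reflects only how much these embryos vary, littermates possibly among them. The table has no gene names, so neither the labelled genotype nor the labelled tissue can be checked from it, and windows are given by position on build GRCm39. A level in a whole blastocyst is an average over its cells, so a few fully methylated cells and partial methylation in many cells cannot be told apart.

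Most mammalian promoters rich in CpG stay free of DNA methylation in nearly every cell type, and in the early embryo this holds while the rest of the genome passes through its lowest methylation level around the blastocyst stage. The methylation that remains is copied at each DNA replication by the methyltransferase DNMT1, which is brought to newly made DNA by UHRF1. PADI6 is made in the oocyte and belongs to the subcortical maternal complex, an assembly that early cleavage depends on. The question put to these windows was whether promoters that control embryos keep clear acquire methylation when the oocyte carried the mutation, in which embryos, and at which positions.

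The 2075 windows fell into 1835 runs of overlapping windows, because 448 of them overlapped at least 1 other member; the longest run held 5. They lay on all 19 autosomes, from 56 windows on chromosome 16 to 176 on chromosome 11, and made up between 7.63% (chromosome 16) and 11.6% (chromosome 19) of the windows with 6 values. In 313 windows all 6 choosing embryos were at exactly 0%, and the median over all members of the highest of the 6 levels was 3.23%. Near the threshold, the 606 members whose highest choosing value lay between 4% and 5% had a mean level of 4.71% over the held-out controls, 4.26% over the 3 densely covered mutants and 4.52% over the 7 sparsely covered mutants. The 782 windows just outside, with a highest value between 5% and 6%, had 5.39%, 4.71% and 4.63%.

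Coverage set what could be read in each embryo, and read depth itself is unknown. The held-out controls had a value in 4984 to 17002 of all windows, mutants 11, 12 and 14 in 38549 to 43812, and the other 7 mutants in 2875 to 13847. Of the 2075 members, held-out controls gave a value in 330 to 1049, sparsely covered mutants in 189 to 835 and densely covered mutants in 1901 to 1994. With few reads a level falls on coarse steps such as 0%, 50% and 100%. Because every held-out control was sparsely covered, the comparison closest in coverage is with the 7 sparsely covered mutants. Coverage was not matched between these groups, as the ranges above show. For the 3 densely covered mutants a second comparison was built: each of the 6 dense controls was left out in turn, windows were chosen by the remaining 5, and the left-out control and the dense mutants were read on those windows.

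The mean level of the unmethylated promoters did not differ detectably between mutant and held-out control embryos. It was 4.38% in control 6, 5.79% in control 7, 4.18% in control 8 and 3.77% in control 9. Among sparsely covered mutants it was 4.29% in mutant 13, 4.54% in mutant 15, 5.31% in mutant 16, 3.56% in mutant 17, 4.05% in mutant 18, 6.82% in mutant 19 and 5.93% in mutant 20. Mutants 19 and 20 were the only 2 of these embryos above the highest held-out control, mutant 17 was below the lowest, and the groups overlapped. The group means were 4.93% ± 1.15 (SD, n = 7) and 4.53% ± 0.88 (SD, n = 4), a difference of 0.40 points (SE 0.62; two-sided exact permutation p = 0.564, adjusted p = 0.749 over the 6 planned tests). Without mutant 19 it was 0.0866 points and without control 7 it was 0.82 points.

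Densely covered mutants spanned a wider range. Over the 2075 members, mutant 12 stood at 3.24%, mutant 11 at 4.26% and mutant 14 at 5.71%. Over all 10 mutants the mean was 4.77% ± 1.14 (SD, n = 10), which is 0.24 points above the held-out controls (SE 0.57, exact permutation p = 0.721, adjusted p = 0.749); 5 of 10 mutants lay above the control mean. Without control 9 the difference was -0.0102 points. In the left-out comparison the 6 dense controls stood at 3.50% (control 10) to 4.52% (control 1), whereas mutant 12 stood at 3.38%, mutant 11 at 4.54% and mutant 14 at 6.30%. Mutant 12 was thus below every left-out control, mutant 11 just above the highest of them and mutant 14 well above it. The means were 4.74% ± 1.47 (SD, n = 3) against 3.95% ± 0.47 (SD, n = 6), a difference of 0.79 points (SE 0.87, exact permutation p = 0.274, adjusted p = 0.749). The smallest p that 3 against 6 embryos can give is 0.0119. Without mutant 14 the difference was 0.01 points, and without mutant 12 it was 1.47 points (exact permutation p = 0.0357, adjusted p = 0.214). That raw p is the smallest that the embryos left can give.

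**Figure D1:**
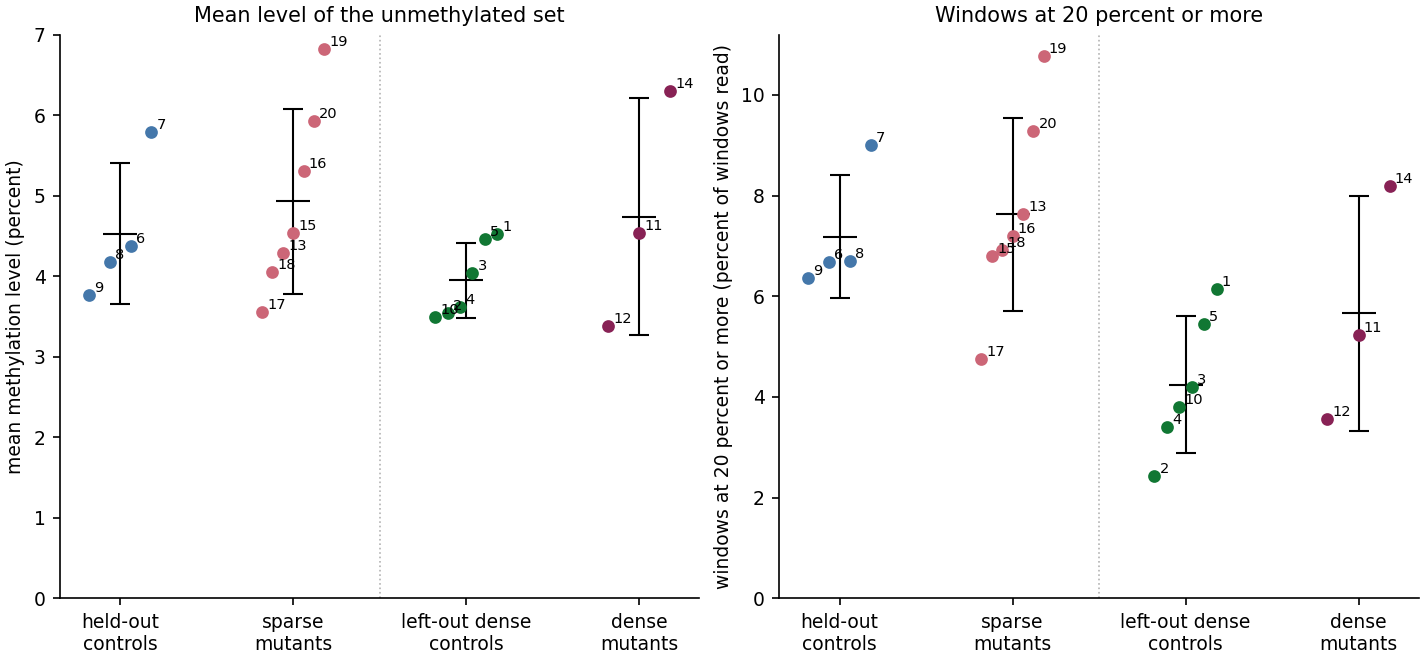
Mean methylation level in percent (left) and percent of windows at 20% or more (right), 1 point per embryo with its replicate number; bars are mean and SD of a group. Held-out controls and sparsely covered mutants are read on the 2075 windows, dense controls and dense mutants on windows chosen with 1 dense control left out. Mutants 14 and 19 are the highest of their groups in both panels, and each mutant group overlaps its controls.

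Windows at 20% or more, a level at least 4 times the choosing threshold, were counted as methylated. Read depth is unknown, so such a value in a sparsely covered embryo may rest on few reads. In the held-out controls this held for 70 of 1049 members in control 6 (6.67%), 73 of 811 in control 7 (9.0%), 61 of 911 in control 8 (6.70%) and 21 of 330 in control 9 (6.36%). Over all autosomal windows the same share was 23.9%, 32.7%, 26.2% and 20.3% in these 4 embryos. So even control embryos that had no part in the choice held values of 20% or more at some of these promoters, at a lower share than over all promoters.

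In the sparsely covered mutants, 60 of 787 members were at 20% or more in mutant 13 (7.62%), 53 of 779 in mutant 15 (6.80%) and 36 of 500 in mutant 16 (7.2%). Mutant 17 had 9 of 189 (4.76%), mutant 18 had 23 of 332 (6.93%), mutant 19 had 90 of 835 (10.8%) and mutant 20 had 41 of 442 (9.28%). Over all autosomal windows these 7 embryos had 19.4%, 22.5%, 18%, 18.5%, 21.8%, 25% and 20%. Mutants 19 and 20 again lay above the held-out controls and mutant 17 below them. The mean share was 7.62% ± 1.92 (SD, n = 7) against 7.18% ± 1.22 (SD, n = 4), a difference of 0.44 points (SE 0.95, exact permutation p = 0.691, adjusted p = 0.749). Without mutant 19 the difference was -0.0846 points. Over the 240 members with a value in at least 6 of the 11 sparsely covered embryos, a subset chosen with the data in view, it was 3.41 points (exact permutation p = 0.0697, adjusted p = 0.194).

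The densely covered mutants had 86 of 1901 members at 20% or more in mutant 11 (4.52%), 61 of 1936 in mutant 12 (3.15%) and 135 of 1994 in mutant 14 (6.77%). Their shares over all autosomal windows were 21.3%, 13% and 35.3%. Of these 3 embryos, mutant 14 had the most methylation over all promoters and over the unmethylated ones, and mutant 12 the least in both. Left-out dense controls had 2.43% (control 2) to 6.15% (control 1). The dense mutants, as means over the same window sets, had 3.56%, 5.24% and 8.18% (mutants 12, 11 and 14). The means of 5.66% ± 2.34 (SD, n = 3) and 4.24% ± 1.36 (SD, n = 6) differed by 1.42 points (SE 1.46, exact permutation p = 0.298, adjusted p = 0.749). Without mutant 14 the difference was 0.15 points, and without mutant 12 it was 2.47 points. Over all 10 mutants the share was 6.78% ± 2.25 (SD, n = 10), 0.40 points under the held-out controls (difference -0.40, SE 0.94, exact permutation p = 0.749, adjusted p = 0.749). Without control 7 it was 0.20 points, and without mutant 12 it was 0.0016 points.

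The distribution of levels differed between the sparsely covered embryos and the dense mutants. Exactly 0% was recorded at 74.1% to 84.2% of members in the held-out controls and at 73.9% to 85.7% in the sparsely covered mutants, against 36.3% to 56.1% in the dense mutants. Values of 50% or more made up 3.33% to 4.93% of the member values in held-out controls, 2.65% to 6.35% in sparsely covered mutants and 0.84% to 1.81% in dense mutants. Dense mutants therefore carried many low values above 0% and few high ones. Of the 1724 members with a value in all 3 dense mutants, 690 (40.0%) were under 5% in all 3 and 1168 (67.7%) under 10% in all 3.

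**Figure D2:**
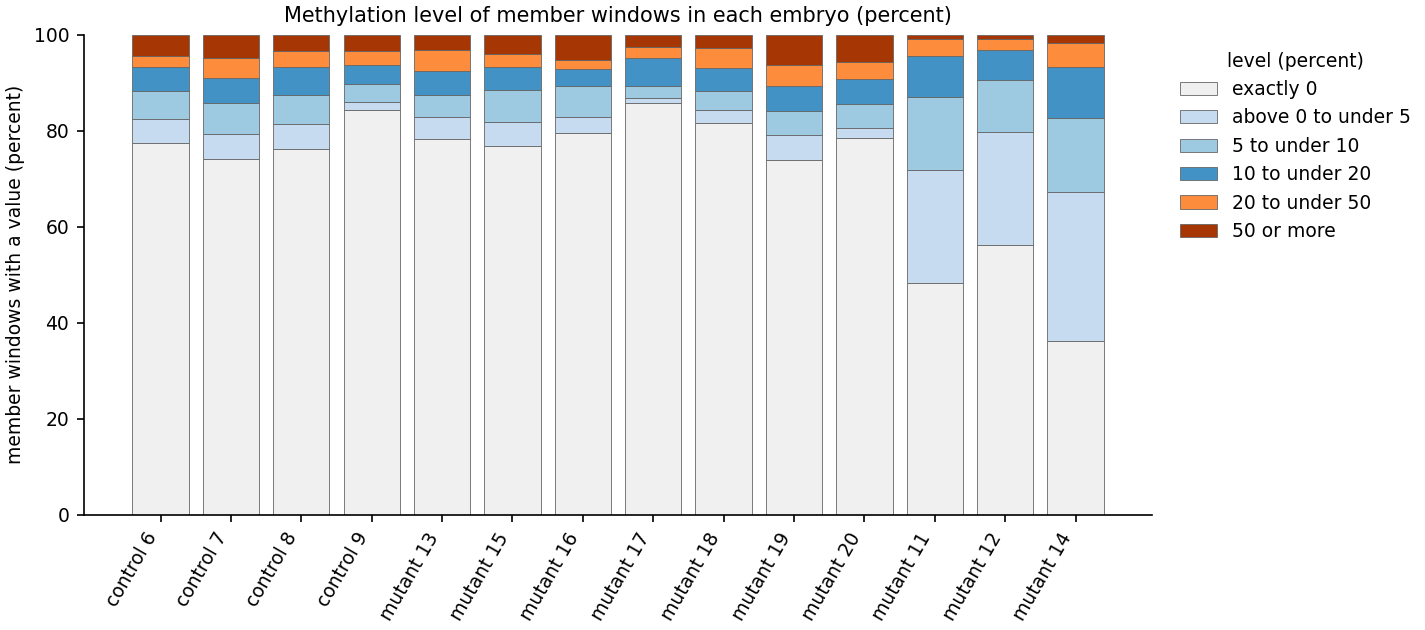
Percent of the member windows with a value that fall in each level class, for the 4 held-out controls, 7 sparsely covered mutants and 3 densely covered mutants. Exact zeros make up 73.9% or more of the values in each sparsely covered embryo of either group and at most 56.1% in a dense mutant, and mutant 19 has the largest share at 50% or more (6.35%).

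Window coverage moved with the high values as well. Members were classed by how many of the 11 sparsely covered embryos gave a value there. In mutant 14 the share at 20% or more was 9.92% over the 677 members with a value in at most 2 of them, 5.68% over the 1158 members with 3 to 5, and 3.43% over the 240 members with 6 or more. Mutant 11 had 7.38%, 3.08% and 3.88%, and mutant 12 had 3.80%, 2.74% and 3.38%. Left-out dense controls had 4.74% to 8.44% in the first class and 0.70% to 4.39% in the last. Mutant 14 exceeded all left-out controls in this share in the first class and in neither of the other classes, with the controls read on their own window sets. Those sets were chosen less strictly than the members. Over all classes mutant 14 had 6.77% on the members and 8.18% on the controls' sets. The classes were thus not compared on like windows, and the unlike sets put mutant 14 lower. In mean level mutant 14 exceeded them in all 3 classes, with 6.97%, 5.25% and 4.49% against highest control values of 5.61%, 4.28% and 4.2%. The part of window coverage in the level of mutant 14 was not tested.

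The order of the dense mutants held on most chromosomes. Mutant 14 was the highest of the 3 on 16 of 19 autosomes and mutant 12 the lowest on 16 of 19. The chromosome means of the members ran from 4.13% (chromosome 3) to 7.09% (chromosome 4) in mutant 14, from 2.70% (chromosome 16) to 7.50% (chromosome 14) in mutant 11, and from 1.23% (chromosome 14) to 5.08% (chromosome 19) in mutant 12. Chromosome 14 thus held the highest mean of mutant 11 and the lowest of mutant 12, over 70 members.

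Relative to the other promoters of the same embryo, the unmethylated set stood higher in mutants. The other promoters are the windows with a value in all choosing embryos that failed the rule. The mean level of members was 31.6%, 27.4%, 25.9% and 29.0% of that of the other windows in controls 6 to 9. In mutants 13, 15, 16, 17, 18, 19 and 20 it was 38.6%, 36.9%, 45.8%, 30.9%, 25.2%, 46.9% and 45.2%, and in mutants 11, 12 and 14 it was 40.2%, 46.9% and 35.2%. Of the 10 mutants, 8 lay above every held-out control, mutant 17 lay between them and mutant 18 below them. The member levels themselves did not differ detectably. The other windows stood at 13% to 21.1% in held-out controls. In sparsely covered mutants they stood at 11.1% to 16.1%, and in dense mutants at 6.90% to 16.2%.

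This ratio was added after the data had been seen, and its tests were adjusted over the 4 comparisons added in that way. Over all 10 mutants it was 39.2% ± 7.36 (SD, n = 10) against 28.5% ± 2.47 (SD, n = 4), a difference of 10.7 points (SE 2.64, exact permutation p = 0.022, adjusted p = 0.044). The call was lost on leaving out any single embryo except mutant 17 or 18 (adjusted exact permutation p = 0.0576 to 0.0979), and the difference ranged between 9.85 and 12.3 points. Among the sparsely covered embryos, the 7 mutants stood 10.0 points above the held-out controls, which missed the threshold (SE 3.35, exact permutation p = 0.0576, adjusted p = 0.0576). Without mutant 17 or without mutant 18 the difference passed (adjusted exact permutation p = 0.0476 and 0.019). In the left-out comparison the dense mutants stood at 41.7% (mutant 11), 48.0% (mutant 12) and 37.8% (mutant 14) and the dense controls at 27.3% to 30.3%, with no overlap. The other windows there stood at 11.5% (control 10) to 15.6% (control 5) in the dense controls. In mutants 11, 12 and 14 they stood at 10.9%, 7.05% and 16.7%. The part of either level in the ratio was not tested. The difference was 13.9 points (SE 3.03, adjusted exact permutation p = 0.044, from a raw p of 0.0119). Both p-values are approximate, because windows were not rechosen in the permutations. With any 1 of the 3 dense mutants left out the difference was between 11.2 and 16.3 points, and the call was lost (exact permutation p = 0.0357, adjusted p = 0.0576). That raw p is the smallest that the remaining embryos can give.

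**Figure D3:**
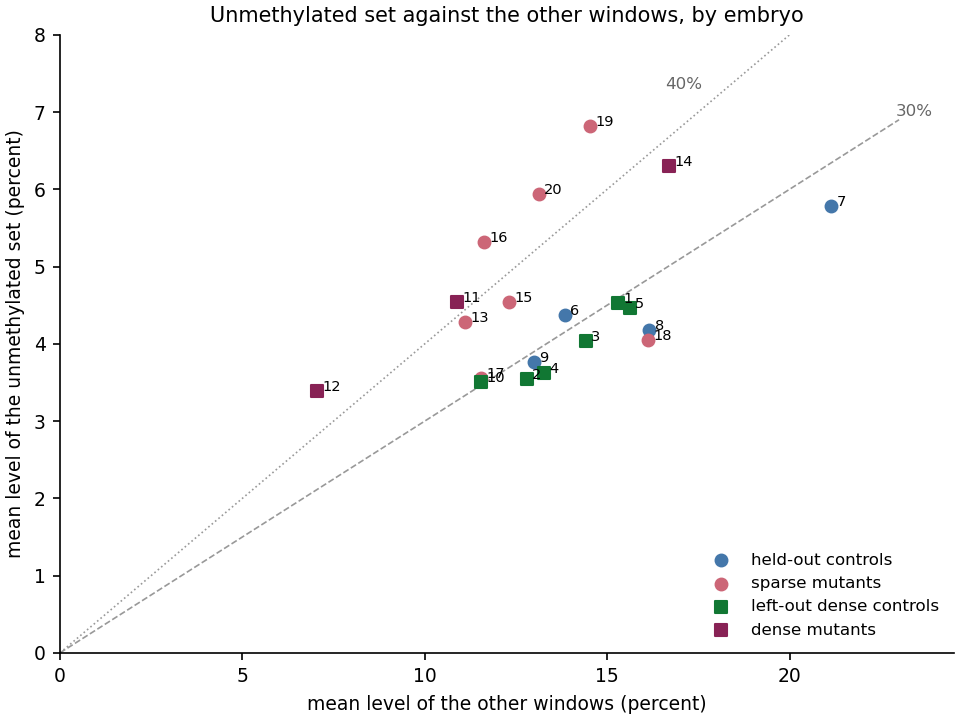
Mean level of the unmethylated windows (vertical axis, percent) against the mean level of the other windows (horizontal axis, percent), 1 point per embryo with its replicate number; the dashed and dotted lines mark 30% and 40% of the other windows. Dense controls and dense mutants (squares) are read on windows chosen with 1 dense control left out. The control embryos lie near the dashed line, and 9 of the 10 mutants lie above the mean ratio of the held-out controls.

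Position by position, mutants were rarely methylated at the same unmethylated promoter. Of the 2075 members, 2073 had a value in at least 1 mutant; 1561 were at 20% or more in no mutant, 442 in exactly 1, 65 in exactly 2, 6 in exactly 3 and 1 in 4. The 72 windows at 20% or more in at least 2 mutants lay in 71 separate runs and made up 3.50% of the 2060 members with a value in at least 2 mutants, against 22.7% of all autosomal windows counted that way. At least 3 mutants were at that level in 7 of 1993 members (0.35%), against 7.73% of all autosomal windows. Among the 3 dense mutants, 12 of 2038 members (0.59%) were at that level in at least 2 and 1 of 1724 in all 3, against 12.9% and 2.21% of all autosomal windows. For the held-out controls, 4 of 987 members (0.41%) were at that level in at least 2, against 12.3%. This is out of 4 sparsely covered embryos rather than 10 mutants, so the mutant and control shares cannot be set against each other. All of these shares were lower among members than among all windows, for mutants and for held-out controls. Members were chosen for low levels, and the recurrence expected from the shares of single embryos was not computed.

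The 72 recurrent windows were spread over all 19 autosomes, with 9 on chromosome 8, 7 on chromosome 11, 6 on chromosome 15 and 1 to 5 on each of the rest. Mutant 14 took part in 31 of them and mutant 19 in 26, and at least 1 dense mutant took part in 51. Without mutant 14 the count was 46. In 35 of the 72, every mutant value that was not at 20% or more was under 5%. Held-out controls had 114 values at the 72 windows, of which 12 (10.5%) were at 20% or more. They had 49 of 663 values (7.39%) at that level at members methylated in exactly 1 mutant and 164 of 2324 (7.06%) at members methylated in none. Of the 72 windows, 64 had a value in a held-out control, and 12 had such a value at 20% or more. Some of the promoters that recurred in mutants thus also held methylated values in control embryos.

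Sharing was compared within pairs of sparsely covered embryos, whose coverage was not matched between the groups. Among the 21 pairs of sparsely covered mutants, 30 of 3277 pair readings (0.92%) were at 20% or more in both embryos. Among the 6 pairs of held-out controls this held for 4 of 1766 (0.23%), from 0 to 1 window a pair. The difference of 0.69 points missed the threshold (exact permutation p = 0.0515 over embryos, adjusted p = 0.0576; added after the data had been seen), and 7 mutant pairs and 2 control pairs shared no window. It passed without mutant 17 or without mutant 18 (adjusted exact permutation p = 0.0476 and 0.0159). With other thresholds for members or for methylated windows it lay between 0.20 and 1.66 points and did not pass (exact permutation p = 0.339 to 0.497). The mutant pairs that shared 3 or 4 windows were 13 with 15, 13 with 19, 13 with 20, 15 with 19, 15 with 20 and 16 with 19.

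Sharing between dense mutants fell within the range of sharing between dense controls. On windows chosen by the other 4 dense controls, the 15 pairs of left-out dense controls had 0.33% to 1.23% of windows at 20% or more in both (median 0.77%). On the same window sets mutants 11 and 12 had 0.39%, mutants 12 and 14 had 0.70%, and mutants 11 and 14 had 1.18%. All 3 mutant values lay within the range of the control pairs, and this difference was not tested. Over the 2075 members themselves the pairs shared 2 of 1783, 4 of 1867 and 8 of 1836 windows.

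**Figure D4:**
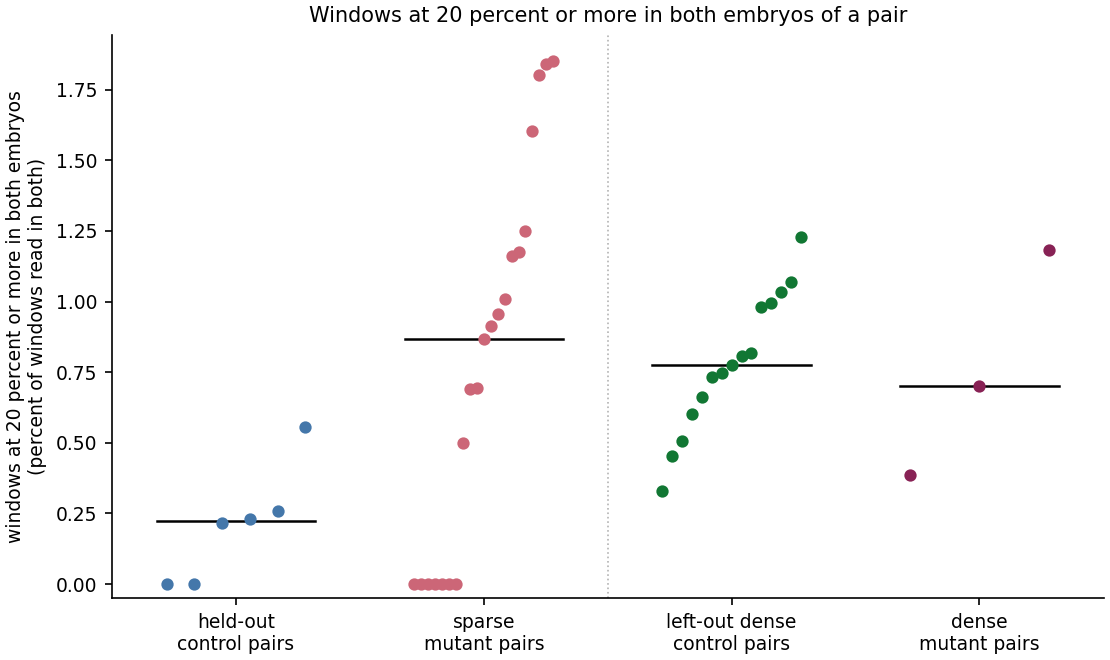
Percent of windows read in both embryos of a pair that were at 20% or more in both, 1 point per pair, with the median as a line. Sparse pairs (left) are read on the 2075 members and dense pairs (right) on windows chosen with 2 dense controls left out, as the mean over 15 window sets for the dense mutants. Pairs of sparsely covered mutants reach 1.85%, held-out control pairs 0.56%, and the 3 dense mutant pairs lie within the range of the dense control pairs.

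The 12 windows below were ranked by the number of mutants at 20% or more among members with at least 3 mutant values, then by the mean mutant level. Since that ranking used the mutant levels, their values are a description with no test. Window 1, on chromosome 8 from 106242387 to 106245886, was at 100% in mutants 13 and 15, 50% in mutant 19 and 33.3% in mutant 20. In the dense mutants it was at 11.8% (mutant 11), 0% (mutant 12) and 5% (mutant 14), and in controls 6 and 9 at 0%; its choosing values ran from 0% to 3.45%. All 4 high values thus came from sparsely covered embryos, and the 3 better covered mutants were low.

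Of the 12, windows 2, 3 and 6 had both dense mutants 11 and 14 at 20% or more. Window 2, on chromosome 7 from 144388820 to 144392319, was at 20% in mutant 11, 12.5% in mutant 12, 33.3% in mutant 14, 0% in mutant 13 and 100% in mutant 19, and at 0% in control 6. Window 3, on chromosome 12 from 84144428 to 84147927, was at 25% in mutant 11, 8.33% in mutant 12, 34.8% in mutant 14, 6.25% in mutant 13, 0% in mutant 15 and 100% in mutant 19, with no held-out value. Window 6, on chromosome 4 from 129154698 to 129158197, was at 20% in mutant 11, 26.3% in mutant 12 and 42.9% in mutant 14, and at 0% in mutant 16 and control 6. It is the single member at 20% or more in all 3 dense mutants, and 5 of its 6 choosing values were exactly 0%, the remaining one 3.33%. The other windows that started or ended within 50 kb of it without overlap, 2 in number, had a mean of 10.4% in the dense mutants; around windows 2 and 3 the 3 and 7 such neighbours had 14.5% and 13.7%.

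At windows 4, 5 and 7 the high values came from both kinds of embryo or from sparsely covered ones alone. Window 4, on chromosome 4 from 123580832 to 123584331, was at 20% in mutant 14, 50% in mutant 19 and 60% in mutant 20, and at 0% in mutants 11 and 12 and control 6. Window 5, on chromosome 4 from 135452483 to 135455982, was at 50% in mutants 15, 16 and 17, at 0% in mutants 11 and 13, 5% in mutant 12 and 9.09% in mutant 14, and at 0% in controls 7 and 8. Window 7, on chromosome 15 from 79893532 to 79897031, was read in 9 mutants, the most of the 12: 16.7% in mutant 11, 36.4% in mutant 14, 25% in mutant 15, 20% in mutant 16 and 0% in mutants 12, 17, 18, 19 and 20. There control 8 was at 50% and control 9 at 0%, so the mutants and the held-out controls overlapped.

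Windows 8 to 12 were at 20% or more in 2 mutants each. Window 8, on chromosome 7 from 29480423 to 29483922, was at 33.3% in mutant 14, 100% in mutant 19 and 0% in mutant 11 and control 8. Window 10, on chromosome 15 from 79688468 to 79691967, was at 100% in mutant 13, 50% in mutant 15, 15.8% in mutant 11, 1.28% in mutant 12 and 2.30% in mutant 14, and at 0% in control 7. Window 12, on chromosome 3 from 131096377 to 131099876, was at 50% in mutant 15 and 100% in mutant 20, at 0% in mutants 11 and 12 and control 7, and at 7.14% in mutant 14. In these 3 windows a single held-out control gave a value, and it was 0% each time.

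Windows 9 and 11 were at 100% in a held-out control as well. Window 9, on chromosome 6 from 17700230 to 17703729, had 0% in all 6 choosing controls and in mutants 11 and 12, 40% in mutant 14, 100% in mutant 16 and 100% in control 6. Window 11, on chromosome 18 from 64649224 to 64652723, had 28.6% in mutant 11, 0% in mutant 12, 5% in mutant 14, 100% in mutant 19 and 100% in control 9. A value of 100% in 1 sparsely covered embryo therefore occurred in controls as in mutants at promoters that dense controls left unmethylated. Over all members such values numbered 2 to 13 in a held-out control, 2 to 17 in a sparsely covered mutant and 0 or 1 in a dense mutant.

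**Figure D5:**
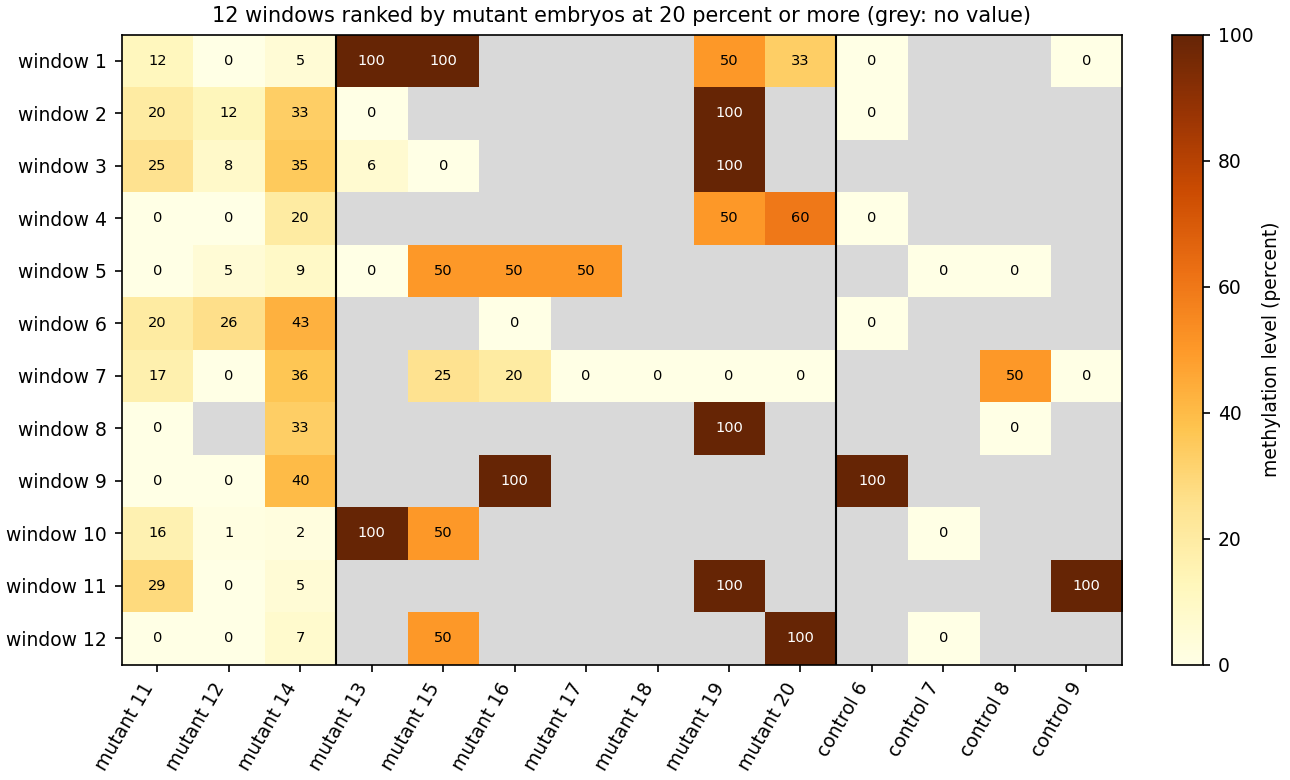
Methylation level in percent (number and colour) of the 12 ranked windows, rows, in the 3 dense mutants, 7 sparsely covered mutants and 4 held-out controls, columns; grey marks no value. All values of 50% or more in these windows sit in sparsely covered embryos, of both groups. Window 6 is the row where all 3 dense mutants are at 20% or more.

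The same ranking over held-out controls with at least 2 values gave 4 windows at 20% or more in 2 controls. On chromosome 1 from 58831533 to 58835032, control 6 was at 100%, control 7 at 50% and control 9 at 0%, whereas mutants 12 and 14 were at 0%. On chromosome 3 from 99144697 to 99148196, controls 7 and 8 were at 50%, mutant 16 at 100%, mutant 11 at 17.4% and mutants 12, 14 and 19 at 0%. On chromosome 6 from 54013539 to 54017038, control 6 was at 28.6% and control 8 at 50%, whereas mutants 11, 12, 13 and 14 were between 0% and 4.44%. On chromosome 2 from 152856848 to 152860347, controls 6 and 9 were at 50% and control 7 at 0%, and mutants 11 to 14 were between 0% and 16.7%. Recurrence in 2 embryos thus appeared within the control group too, at other positions.

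Some members were at 0% in every embryo that had a value and was not used in the choice. All values of the 14 embryos not used in the choice were exactly 0% at 168 of 2074 members (8.1%), against 15.1% of all autosomal windows with a value in at least 1 of these embryos. Among members with a value in at least 5 mutants it was 55 of 1073 (5.13%), against 3.1% of all autosomal windows so covered. The best covered was on chromosome 11 from 53190785 to 53194284, at 0% in the 8 mutants 11, 12, 13, 14, 15, 17, 19 and 20 and in control 7. Next came chromosome 6 from 124905349 to 124908848, at 0% in 7 mutants and in controls 7 and 8, and chromosome 1 from 37758667 to 37762166, at 0% in 7 mutants and in control 8. The choosing controls were not all at 0% there: their highest values at these windows were 3.23%, 1.54% and 2.56%, in that order.

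Tested window by window, no member was called in either direction. A limma fit of mutants against held-out controls covered 11723 autosomal windows, of which 917 were members; it left out windows with no spread within either group. None was called higher in mutants (0% of all windows tested, adjusted p under 0.05 by Benjamini-Hochberg), and 49 windows (0.418%) were called lower, none of them a member. At an unadjusted p under 0.05 there were 0 members higher and 9 lower (0.98% of members), against 52 (0.44%) and 674 (5.75%) of all windows. By sign alone, the fit put 609 of the 917 members (66.4%) higher in mutants and 308 lower. Over all windows tested 55.3% were higher, and this direction was not tested. Exact zeros made up 74.1% to 84.2% of the member values in held-out controls and 36.3% to 56.1% in the dense mutants. A sign close to 0% can therefore move with coverage, and the part of coverage in these signs was not tested. The member with the smallest adjusted p was the chromosome 6 window from 54013539 to 54017038 above, at 1.94% (n = 4 mutants) against 39.3% (n = 2 controls), lower by -37.3 points with SE 6.71 and an adjusted p from limma of 0.16. With trend and robust fitting limma called 0 windows in either direction, and 27 members were lower and 0 higher at an unadjusted p under 0.05, against 507 and 3 of all 11723 windows. The 49 calls became 14 without mutant 12 and 19 without control 7, and no member was called in any of these refits. A count of 0 does not show that members did not change.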

How the data were processed

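For the single-blastocyst bisulfite reads, the submitters' processing notes name Trim Galore 0.4.4, Bismark 0.18.2 and build GRCm39. What the authors deposited is 1 table of methylation levels in percent, read here as a score because 1594 of its 491705 values (0.324%) were whole numbers over 100; these were divided by 1000, after which 0 exceeded 100. The way calls were combined per window, with or without a coverage minimum, was not given in the sources used here. Of 54080 rows, 46 repeats were dropped. No read counts are in the table, so depth and binomial intervals are unknown. Embryos with at least 30000 windows count as densely covered. The gene and sequence tables at hand are on GRCm38.p6, so no gene or sequence could be joined, and the planned gene lists (housekeeping, germline, DNA methylation, lineage) were not analysed here.

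An embryo's value was the plain mean over members with a value, or the percent of them at 20% or more. Group means were compared by two-sided exact permutation tests over embryos, adjusted by Benjamini-Hochberg over 6 planned and, separately, 4 added tests. The windowwise fit across all windows used limma 3.58.1 in R 4.3.3 (lmFit, eBayes) over autosomal windows with a value in at least 2 held-out controls and 3 mutants. Windows without spread in either group were left out after a check on the measured values, shuffled over embryos within each window. In that check the fit still made some false calls, so a call at a single window is weak evidence. Windows named were the first 12 by mutants at 20% or more, the first 4 by held-out controls and the 3 best covered at 0% in every embryo not used in the choice, 1 per run of overlapping windows. The members, lists and rules were chosen with earlier results of these data known.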

Additional observations from a re-analysis of the deposited data

Results flagged for a closer look

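Control 7 stood apart from the other held-out controls in the share of members at 20% or more. It had 9.0%, the next highest, control 8, had 6.70%, and this gap was 0.874 of the range of the 4 embryos, past the 95% limit of Dixon's test for 4 values. Of 9 sets of values checked, 1 was past its limit. Chance passes the limit in about 1 of 20 for each single set, so 1 flag among 9 sets is weak evidence. Control 7 also had the highest mean level over the other windows (21.1%). Without it the share over all 10 mutants was 0.20 points above the held-out controls instead of 0.40 points below (difference -0.40).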

How the results depend on the processing

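No paired analysis was possible because the sources used here give no mother, litter or batch that would link a control to a mutant. The differences in mean level kept their sign under the alternatives run, except without control 9, and none passed after adjustment. Their size moved: over sparsely covered mutants 0.40 points became 1.11 with a member threshold of 2% and 1.46 over well covered members (a value in at least 6 of the 11 sparsely covered embryos, chosen after seeing the data), and over all mutants 0.24 became 1.05 and 1.21. The dense comparison was not run with all choosing values at 0%, with 5 of 6 values or with the additive fit. The difference in the share at 20% or more, -0.40 points over all mutants, was 0.25 with a member threshold of 2%, 0.42 with methylated taken as 10% or more, and 2.25 over well covered members; over sparsely covered mutants 0.44 became -0.75 at members with 0% in all choosing embryos and 3.41 over well covered members. The 72 recurrent windows became 14 and 263 with member thresholds of 2% and 10%, 13 at exactly 0%, 155 with 5 of 6 choosing values, 258 and 12 with methylated taken as 10% and 50% or more, and 19 over well covered members. The difference in the ratio to other windows over all mutants was 17.1 (exactly 0%; adjusted exact permutation p = 0.339), 10.9 (1 window per run; 0.0699) and 18.8 (well covered; 0.0525) and then missed the threshold; over sparsely covered mutants it passed at 16.3 (2%) and 11.9 (10%). The difference in shared pairs, 0.69 points, was 0.46 and 0.21 with member thresholds of 2% and 10%, 1.66 at exactly 0%, 0.41 and 0.20 with methylated taken as 10% and 50% or more, and 1.35 over well covered members (exact permutation p = 0.0394, adjusted p = 0.0525). The 49 windows called lower by limma became 1 with at least 3 held-out controls and 5 mutants and 0 with trend and robust fitting. The cause of these moves was not tested.

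With each embryo left out in turn, the differences ranged from -0.0102 to 0.66 points (mean level, all mutants), 0.0866 to 0.82 (mean level, sparsely covered), 0.0137 to 1.47 (mean level, dense), -0.85 to 0.20 (share, all mutants), -0.0846 to 1.05 (share, sparsely covered), 9.85 to 12.3 (ratio, all), 8.62 to 12.2 (ratio, sparsely covered), 11.2 to 16.3 (ratio, dense) and 0.57 to 0.83 (shared pairs). Recurrent windows ranged from 46 to 70, and limma calls from 14 to 66.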
